A study of Mus musculus with 6 samples.

Results

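Liver X receptor (LXR) targets and cholesterol efflux genes were followed as 9 genes, taken by symbol from the 54532 genes of the deposited table. They were the receptor genes Nr1h2 and Nr1h3, the transporter genes Abca1 and Abcg1, the apolipoprotein genes Apoe and Apoc2, and Mylip, Lpcat3 and Smpdl3a. Each symbol matched 1 row. RNA-seq had been run on primary macrophages of wild-type mice (genotype WT) in 2 groups. The rmMETRNL group was 3 samples held with rmMETRNL in vitro for 6 h and then challenged with the yeast Candida albicans for 6 h. The vehicle group was 3 samples given vehicle in its place and the same challenge. The treatment is named for METRNL (meteorin-like), a secreted protein whose own gene was intact in all 6 samples. Because every sample met the fungus, the comparison is between pretreatments and says nothing of the response to the fungus. The labels name neither the site the macrophages came from nor the strain, age or number of mice. The spread between the 3 samples of each group, which enters every p-value, could therefore be technical. Which columns are rmMETRNL and which vehicle was taken from the letters of their names, and so was every direction given below.

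LXRs are nuclear receptors that sense oxysterols, the oxidised forms of cholesterol. Nr1h3 encodes LXRalpha and Nr1h2 encodes LXRbeta. Each pairs with a retinoid X receptor (RXR), and without ligand the pair holds corepressors on its target genes. In macrophages, which take in cholesterol with the cells and particles they engulf, ligand-bound LXRs are known to raise the genes that export it. They are also known to restrain inflammatory genes, and signals from some Toll-like receptors are known to dampen LXR targets.

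LXR and RXR bind DNA at DR4 elements, direct repeats of a 6-base motif with 4 bases between them. The idealised element, AGGTCA followed by any 4 bases and AGGTCA again, was searched on both strands in RefSeq promoter windows (GRCm38.p6, 250 bases before to 50 after a start site), which were found for 7 of the 9 genes. The best match of Abca1, and those of Lpcat3 and Mylip for contrast, are shown in the direction of the element, with capitals where a base equals it and the 4 spacer bases in lower case.
Abca1: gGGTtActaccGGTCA
Lpcat3: AGGTaggaagAGGgCg
Mylip: AGtTCccgggAGcTac
The Abca1 match differed from the element at 3 of 12 bases and was the closest among these windows. It lay on the strand opposite to the gene at chr4:53159947-53159962 and began 67 bases before the start site. A match this close or closer was held by 21.9% of all 32851 windows. The best matches of Nr1h2, Nr1h3, Apoe, Apoc2 and Lpcat3 differed at 4 bases, as close as in 76.9% of windows, and that of Mylip at 5. The Abca1 promoter is known to hold an LXR element near its start, and its whole window (chr4:53159846-53160145, minus strand) is printed with the matched bases in capitals.
Abca1 promoter: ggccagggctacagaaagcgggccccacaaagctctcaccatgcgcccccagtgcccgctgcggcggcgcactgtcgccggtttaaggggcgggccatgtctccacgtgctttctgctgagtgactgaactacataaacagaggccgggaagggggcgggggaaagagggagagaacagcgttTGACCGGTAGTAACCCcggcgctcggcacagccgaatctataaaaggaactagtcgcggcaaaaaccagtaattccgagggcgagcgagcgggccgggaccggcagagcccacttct
A match of letters is a description of sequence, and no binding was measured here.

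Levels are the authors' deposited FPKM, which divide a gene's fragments by its length and by a library scale. Reads recovered from them summed to between 13235001 and 18145733 per library. Of 10 macrophage markers 10 passed the level tested, among them Lyz2 at 5567 ± 139 FPKM in rmMETRNL samples and 5460 ± 382 FPKM in vehicle samples, and Ctss at 2364 ± 105 and 2321 ± 165 FPKM (mean ± SD, n = 3, as for all such values below). The extraction text in the labels speaks of retinas, and 8 retina markers summed to between 0.623 and 0.855 FPKM in rmMETRNL samples and between 0.446 and 0.591 FPKM in vehicle samples. Neutrophil markers summed to between 117 and 125 FPKM with rmMETRNL and between 105 and 114 FPKM with vehicle. Nearly all of it was S100a8 and S100a9, which macrophages can also express, with Elane at 0. S100a8 overlapped between the groups, at 86.1 ± 0.564 FPKM with rmMETRNL and 83.7 ± 4.59 FPKM with vehicle. S100a9 lay wholly higher with rmMETRNL, at 34.8 ± 3.56 against 24.4 ± 0.781 FPKM, as did 10.9% of all genes tested. Of 5 markers of hepatocytes, a source of apolipoproteins, Alb, Ttr, Serpina1a and Ahsg were at 0 in every library. Apoa2 stood at 1.75 ± 0.846 FPKM with rmMETRNL and 0.61 ± 0.271 FPKM with vehicle. Its values rest on 8 to 21 reads per rmMETRNL library and 3 to 9 per vehicle library. T and B cell markers, led by Cd79a, summed to at most 4.85 FPKM, and fibroblast and mesothelial markers, led by Dcn and Col1a1, to at most 9.04 FPKM in any library. The part of the differences in neutrophil markers and Apoa2 in the values below was not tested. In bulk RNA, fewer cells of a type and less RNA per cell cannot be told apart.

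In these macrophages the apolipoprotein gene Apoe was by far the most abundant of the 9, and its neighbour Apoc2 was almost without counted reads. Averaged over the 6 libraries, Apoe stood at 470.3 FPKM, rank 109 among all genes. Smpdl3a followed at 155 FPKM, then Abca1 at 38.6, Nr1h2 at 33.5 and Lpcat3 at 11.03 FPKM. The low members were Abcg1 at 3.09, Nr1h3 at 2.22 and Mylip at 1.35 FPKM. Abca1 and Nr1h2 overlapped in their values, with Abca1 the higher in 5 of 6 libraries. Every other pair of neighbours in this order was apart in all 6 libraries. Abca1, which moves cholesterol and phospholipid onto apolipoprotein A-I, was therefore far above Abcg1 on a scale that allows for gene length. Abcg1 passes cholesterol to larger particles. The deposited length of Abcg1 was 4066 bases, below the 7298 exon bases of its GENCODE M21 annotation. A longer length lowers FPKM, so the place of Abcg1 above Nr1h3 depends on the length used.

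**Figure D1:**
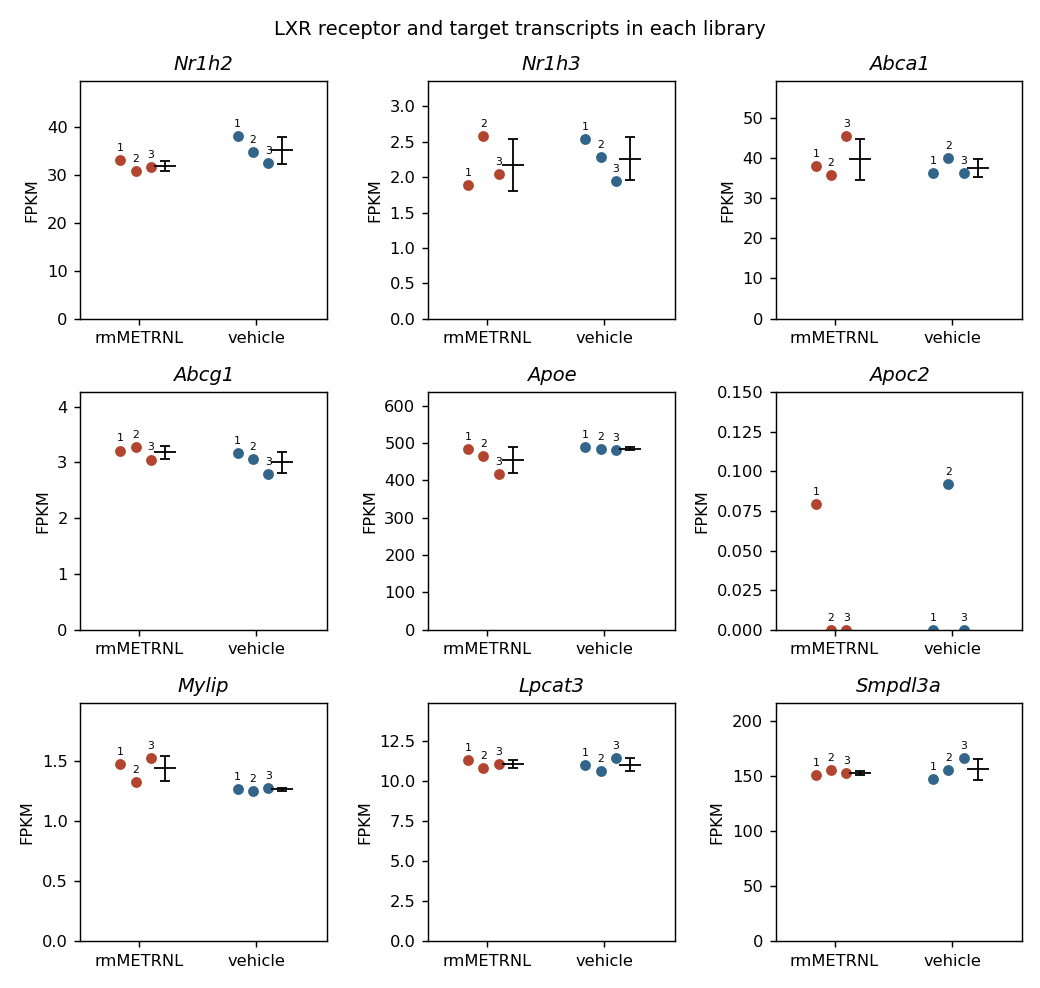
FPKM of the 9 genes in each library, rmMETRNL left and vehicle right, with the library number above each point, and the mean and SD (n = 3) beside the points except for Apoc2, which had 1 read in 1 library of each group. The groups overlap in every panel except Mylip, where the lowest rmMETRNL value is 1.32 and the highest vehicle value 1.27 FPKM.

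No member passed the test between rmMETRNL and vehicle. Limma on log2(FPKM + 1) was fitted to the 9867 genes that averaged 1 FPKM or more, with Benjamini-Hochberg adjustment over all of them and a threshold of 0.05. It called 0 of the 8 members tested, against 0% of all genes in either direction. Unadjusted p-values under 0.05 were found for 0 of the 8, against 14.7% of all genes, and limma voom on the recovered reads called 0 of the 8, against 0.618%, or 0.405% in the higher direction alone. The receptors, transporters, apolipoproteins and enzymes are described in turn below.

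LXRbeta was the main receptor transcript. Nr1h2 (ENSMUSG00000060601, chromosome 7, 44549616 to 44553951, minus strand, GRCm38) had 33.05, 30.9 and 31.7 FPKM in rmMETRNL samples and 38.1, 34.7 and 32.5 FPKM in vehicle samples. Vehicle samples 1 and 2 lay above all rmMETRNL samples, while vehicle sample 3 fell within their range. The log2 fold change was -0.13 (SE 0.07, 95% interval -0.29 to 0.03, adjusted p = 0.409 in limma), with the smallest unadjusted p of the members, 0.0873. Without vehicle library 1, the highest, it was -0.07, and without vehicle library 3 it was -0.19 (adjusted p = 0.390 in limma).

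Nr1h3 (ENSMUSG00000002108, chromosome 2, 91184061 to 91202834, minus strand), the LXRalpha gene, is known to be a target of LXR itself in human macrophages. It had 1.89, 2.58 and 2.04 FPKM in rmMETRNL samples and 2.55, 2.29 and 1.94 FPKM in vehicle samples. The groups covered nearly the same range, and the values rest on 74 to 102 reads per rmMETRNL library and 77 to 97 per vehicle library. The log2 fold change was -0.04 (SE 0.12, 95% interval -0.32 to 0.23, adjusted p = 0.902 in limma), the widest interval among the members. Nr1h3 made up 6.40% ± 1.20 of the FPKM of both receptors in rmMETRNL samples and 6.03% ± 0.336 in vehicle samples (n = 3 each). The difference of 0.365 percentage points lay within the spread (exact two-sided permutation test over samples, p = 0.9, where 3 against 3 can reach no lower than 0.1), and it was -0.301 without rmMETRNL library 2.

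The efflux transporters did not separate the groups. Abca1 (ENSMUSG00000015243, chromosome 4, 53030787 to 53159895, minus strand) had 37.8, 35.7 and 45.4 FPKM in rmMETRNL samples and 36.2, 39.99 and 36.3 FPKM in vehicle samples. rmMETRNL sample 3 stood above the other 5, which lay between 35.7 and 39.99 FPKM. The log2 fold change was 0.07 (SE 0.09, 95% interval -0.15 to 0.30, adjusted p = 0.764 in limma), and without rmMETRNL library 3 it was -0.03 (adjusted p = 0.910 in limma). Each library held at least 5539 reads of the gene.

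Abcg1 (ENSMUSG00000024030, chromosome 17, 31057698 to 31115777, plus strand) had 3.21, 3.28 and 3.05 FPKM in rmMETRNL samples and 3.17, 3.05 and 2.80 FPKM in vehicle samples. rmMETRNL samples 1 and 2 were the highest of the 6 and vehicle sample 3 the lowest, with the others between. Its log2 fold change was 0.06 (SE 0.07, 95% interval -0.10 to 0.22, adjusted p = 0.717 in limma), and 0.02 without vehicle library 3 (adjusted p = 0.923).

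Apolipoprotein E accepts cholesterol leaving the macrophage and is also secreted by it. Apoe (ENSMUSG00000002985, chromosome 7, 19696109 to 19699188, minus strand) had 485, 465 and 417 FPKM in rmMETRNL samples and 489, 485 and 480.5 FPKM in vehicle samples. The vehicle samples lay within 9 FPKM of each other, and rmMETRNL samples 2 and 3 lay below them while rmMETRNL sample 1 lay within their range. The log2 fold change was -0.09 (SE 0.06, 95% interval -0.24 to 0.05, adjusted p = 0.524 in limma). Without rmMETRNL library 3, the lowest, it was -0.03 (adjusted p = 0.810 in limma).

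Apoc2, Apoc4, Apoc1 and Apoe lie side by side in that order on chromosome 7, and in mouse and human macrophages LXR is known to act on this cluster through shared enhancers. Apoc2 (ENSMUSG00000002992, chromosome 7, 19671579 to 19677941, minus strand), the gene for the cofactor of lipoprotein lipase, had 1 read in rmMETRNL library 1 and 1 in vehicle library 2 and none in the other 4. A count of 0 still allows up to 3 reads, between 0.203 and 0.249 FPKM in the libraries at 0, so no fold change is given. The predicted gene Gm44805, listed at 0 in every library, covers 79.5% of the exon bases of Apoc2 on the same strand. Of the 31-base words of Apoc2, 88.5% occur in another gene, so reads of these genes cannot be told apart there. How such reads were counted is not given in the sources used here, so the limit of 3 reads does not bound the level of Apoc2.

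The other apolipoprotein genes of the cluster also had few reads. Apoc1 had 3 reads in rmMETRNL library 3 and 1 in vehicle library 3, and Apoc4 had 3 reads in vehicle library 1, with no reads of either gene elsewhere. Of the genes outside the apolipoproteins, Tomm40, Nectin2 and Clptm1 were expressed and overlapped between groups, and the predicted gene Gm20512 was at 0 in every library. Tomm40, a mitochondrial import pore gene, had 8.62 ± 0.944 FPKM with rmMETRNL and 8.68 ± 0.940 FPKM with vehicle, Nectin2 had 3.21 ± 0.277 and 3.02 ± 0.256 FPKM, and Clptm1 had 24.6 ± 0.993 and 25.95 ± 1.31 FPKM.

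**Figure D2:**
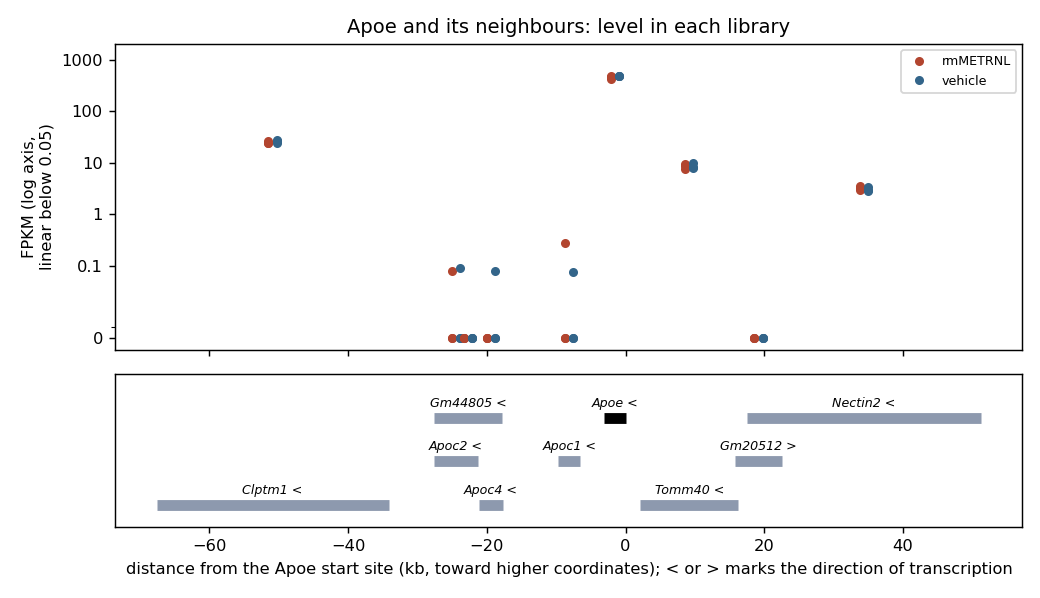
Apoe and the genes beside it by distance from the Apoe start site in kb (lower panel), and the FPKM of each gene in each library on a log axis that is linear below 0.05 (upper panel), with rmMETRNL points left of vehicle points at each gene's middle. Apoe stands at 417 to 489 FPKM, while Apoc1, Apoc2 and Apoc4 are at or near 0.

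Mylip was the 1 member whose groups did not overlap. It encodes the ubiquitin ligase IDOL, which sends lipoprotein receptors to degradation. Mylip (ENSMUSG00000038175, chromosome 13, 45389742 to 45412022, plus strand) had 1.47, 1.32 and 1.52 FPKM in rmMETRNL samples and 1.27, 1.25 and 1.27 FPKM in vehicle samples. All 3 rmMETRNL samples lay above all 3 vehicle samples, as they did in 10.9% of all genes tested, so 1 of 8 members is near the background. The values rest on 67 to 74 reads per rmMETRNL library and 54 to 75 per vehicle library, and the log2 fold change was 0.11 (SE 0.09, 95% interval -0.10 to 0.31, adjusted p = 0.607 in limma). On the read scale of voom, which does not shrink low genes, it was 0.17 (95% interval -0.24 to 0.58, adjusted p = 0.713). Among receptors that IDOL acts on, Lrp8 had 2.09 ± 0.160 FPKM with rmMETRNL and 2.15 ± 0.117 FPKM with vehicle, and Vldlr had 0.531 ± 0.0762 and 0.436 ± 0.0289 FPKM, with overlapping groups.

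Lpcat3 puts polyunsaturated fatty acids into membrane phospholipids. Lpcat3 (ENSMUSG00000004270, chromosome 6, 124663027 to 124704418, plus strand) had 11.3, 10.8 and 11.06 FPKM in rmMETRNL samples and 10.97, 10.6 and 11.4 FPKM in vehicle samples. The rmMETRNL values fell wholly inside the vehicle range. Its log2 fold change was 0.01 (SE 0.05, 95% interval -0.11 to 0.13, adjusted p = 0.958 in limma), the narrowest interval of the members. Emg1 on the other strand shares 10.2% of its exon bases, and whether counting used the strand is not given in the sources used here.

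Smpdl3a encodes a secreted phosphodiesterase that is an LXR target in human macrophages. Smpdl3a (ENSMUSG00000019872, chromosome 10, 57794335 to 57811830, plus strand) had 151, 155 and 153 FPKM in rmMETRNL samples and 147, 155 and 167 FPKM in vehicle samples. The rmMETRNL samples again lay inside the vehicle range, which vehicle samples 1 and 3 set at its ends. This gave a log2 fold change of -0.03 (SE 0.05, 95% interval -0.16 to 0.10, adjusted p = 0.841 in limma).

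Set beside each other, 4 of the 8 members were above 0 in log2 fold change, against 48.4% of all genes tested. Their median was -0.011, against -0.0056 over all genes tested. The members' intervals in limma together ran from 0.804-fold, the lower bound of Nr1h3, to 1.24-fold, the upper bound of Mylip. The added 1 FPKM shrinks the folds of the low members. In voom the corresponding outer bounds were 0.729-fold for Nr1h3 and 1.49-fold for Mylip, and for Abca1 they were 0.935-fold and 1.17-fold.

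**Figure D3:**
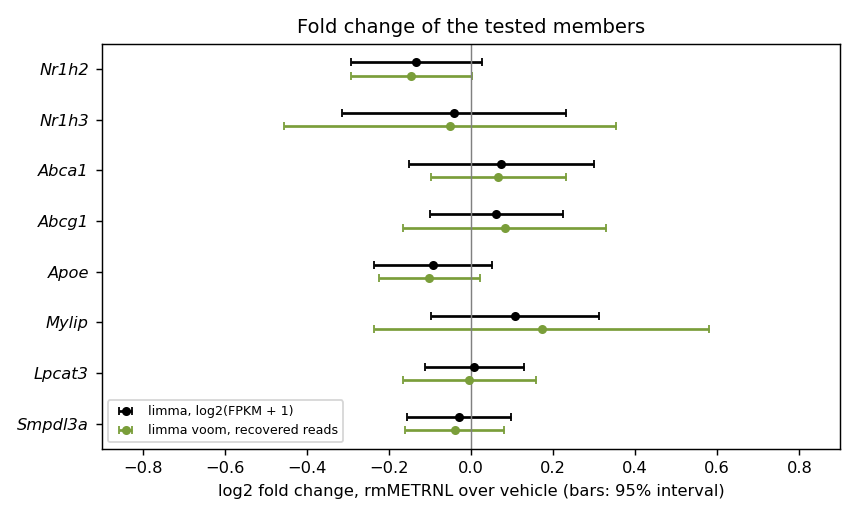
Log2 fold change of rmMETRNL over vehicle for the 8 tested members in limma on log2(FPKM + 1) (black) and limma voom on recovered reads (green), with 95% intervals from 3 libraries per group. Every interval crosses 0, and the points lie between -0.15 (Nr1h2 in voom) and 0.17 (Mylip in voom).

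The members did not share a pattern over the libraries. In rmMETRNL library 3, Abca1 lay 0.24 above its mean of the 6 libraries on the log2 scale and Apoe 0.17 below its own. These are the longest gene and the second shortest of the 8, at 10363 and 2138 bases. The second longest, Abcg1 at 4066 bases, and the shortest, Smpdl3a at 2065 bases, were near their means in that library, at -0.01 and -0.02. In that library the deviation of all tested genes rose with gene length (Spearman correlation 0.313 across genes, which are not independent replicates), where the other 5 libraries had values between -0.168 and -0.0212. When the trend with gene length was removed from each library, a choice made after seeing the data, the log2 fold changes were 0.05 for Abca1 and -0.07 for Apoe, and neither passed. Nr1h2 was highest in vehicle library 1, at 0.18 above its mean, and Nr1h3 lay 0.16 above its mean in rmMETRNL library 2 and 0.15 below it in rmMETRNL library 1.

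**Figure D4:**
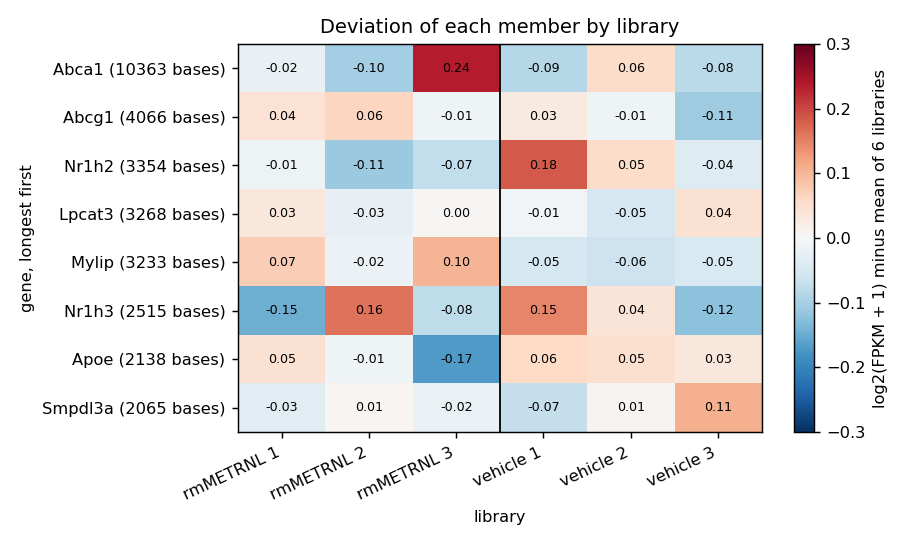
Deviation of each tested member from its own mean over the 6 libraries, on the log2(FPKM + 1) scale, with genes ordered from the longest to the shortest, rmMETRNL libraries left of the line and vehicle libraries right of it. The largest deviations are Abca1 (0.24) and Apoe (-0.17) in rmMETRNL library 3 and Nr1h2 (0.18) in vehicle library 1.

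The genes whose values followed Abca1 most closely over the 6 libraries were sought among 5381 others with a mean of at least 5 FPKM. By Pearson's r on log2(FPKM + 1), the 5 closest were Smg1 (0.996), Fyb (0.991), Setd2 (0.982), Hivep1 (0.970) and Prdm1 (0.969). All 5 had their highest value in rmMETRNL library 3, as Abca1 did, and gene lengths between 5384 and 23984 bases. Smg1, which encodes a kinase of nonsense-mediated mRNA decay, had 8.68, 8.05 and 10.6 FPKM in rmMETRNL samples and 8.38, 9.16 and 8.20 FPKM in vehicle samples. These values are given as a description of 6 points, and the part of gene length in the likeness was not tested. None of the 5 was on the lists of LXR targets.

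The partners and coregulators of LXR, 15 genes of which 14 were tested, gave 0 calls in limma, 0 in voom and 2 unadjusted p-values under 0.05, 1 in each direction, against 7.54% higher and 7.13% lower over all genes. Their median log2 fold change was -0.008. Rxra, the main RXR transcript here, had 15.2 ± 0.899 FPKM with rmMETRNL and 16.3 ± 0.388 FPKM with vehicle, Rxrb 8.61 ± 0.918 and 9.02 ± 0.740 FPKM, and Rxrg was at 0 throughout. Ncoa1, a coactivator gene, had 3.07, 2.76 and 3.03 FPKM with rmMETRNL and 2.49, 2.09 and 2.36 FPKM with vehicle, with no overlap (log2 fold change 0.25, SE 0.08, adjusted p = 0.262 in limma). Groups without overlap were also seen for Tbl1xr1 (5.50 ± 0.154 and 4.96 ± 0.186 FPKM) and Hdac3 (14.4 ± 0.640 and 15.6 ± 0.309 FPKM), both parts of corepressor complexes. Over the list, 2 of 14 lay wholly above and 2 of 14 wholly below, against 10.9% and 10.6% of all genes.

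Genes that make or clear the sterol ligands of LXR were mostly near or below the level tested. Of 9, 3 were tested, with a median log2 fold change of -0.07 and 0 unadjusted p-values under 0.05. Ch25h, which makes 25-hydroxycholesterol and is known to be induced by microbial signals, had 1.38, 2.22 and 1.50 FPKM with rmMETRNL and 1.61, 1.22 and 1.10 FPKM with vehicle (log2 fold change 0.22, SE 0.15, adjusted p = 0.545 in limma). The groups overlapped, and rmMETRNL sample 2 was the highest. Ebp, a sterol isomerase gene of cholesterol synthesis, had 8.91 ± 0.923 FPKM with rmMETRNL and 9.35 ± 0.402 FPKM with vehicle.

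Other genes known as LXR targets had fold changes in either direction. Of 20, 13 were tested, 5 with a positive and 8 with a negative log2 fold change and a median of -0.009. Limma called 0, and voom called 1, higher, against 0.405% of all genes called higher. Unadjusted p-values under 0.05 numbered 3 higher and 1 lower, against 7.54% and 7.13% of all genes. Lpl, the lipoprotein lipase gene, was the 1 gene called in voom (adjusted p = 0.0182) and had 16.4, 16.9 and 16.8 FPKM with rmMETRNL against 13.4, 13.5 and 12.4 FPKM with vehicle (log2 fold change 0.33, SE 0.05, adjusted p = 0.151 in limma). Its groups stood well apart, with each within 1.1 FPKM. Over the list, 3 of 13 lay wholly above and 2 of 13 wholly below, against 10.9% and 10.6% of all genes.

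Srebf1, which encodes the fatty acid synthesis regulator SREBP1 and is a classic LXR target, had 17.4, 17.04 and 16.2 FPKM with rmMETRNL and 21.6, 19.3 and 19.9 FPKM with vehicle. All 3 rmMETRNL samples lay below all 3 vehicle samples, as they did in 10.6% of all genes tested. The log2 fold change of Srebf1 was -0.25 (SE 0.06, adjusted p = 0.219 in limma and 0.0629 in voom). The desaturase genes Scd2 and Scd1 and the synthase gene Fasn, which both LXR and SREBP1 can raise, were not all on the same side as Srebf1. Scd2 had 8.46 ± 0.773 FPKM with rmMETRNL and 7.06 ± 0.468 FPKM with vehicle, Scd1 1.50 ± 0.128 and 1.79 ± 0.333 FPKM, and Fasn 2.28 ± 0.176 and 2.62 ± 0.348 FPKM. Arl4c, a small GTPase gene, had 35.7 ± 0.224 and 32.5 ± 1.02 FPKM, with the rmMETRNL values wholly above. None of these passed limma or voom.

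Genes of cholesterol uptake, storage and traffic, 15 tested of 18, had a median log2 fold change of -0.021, with 0 calls in limma, 0 in voom, and unadjusted p-values under 0.05 for 1 higher and 2 lower, against 7.54% and 7.13% of all genes. Lrp1, an endocytic receptor for apolipoprotein E particles, had 70.9, 57.4 and 72.8 FPKM with rmMETRNL and 92.99, 88.4 and 75.8 FPKM with vehicle, without overlap (log2 fold change -0.35, SE 0.11, adjusted p = 0.273 in limma). Soat1, which esterifies cholesterol for storage, had 73.6 ± 2.55 FPKM with rmMETRNL and 67.3 ± 1.65 FPKM with vehicle. Abca7, a close relative of Abca1, had 9.25 ± 0.733 and 10.96 ± 1.02 FPKM, and the lysosomal sterol carrier gene Npc2 had 170 ± 10.7 and 188 ± 8.01 FPKM. The groups of Soat1 and Npc2 also did not overlap, while those of Abca7 did. Over the list, 4 of 15 lay wholly above and 2 of 15 wholly below, against 10.9% and 10.6% of all genes.

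**Figure D5:**
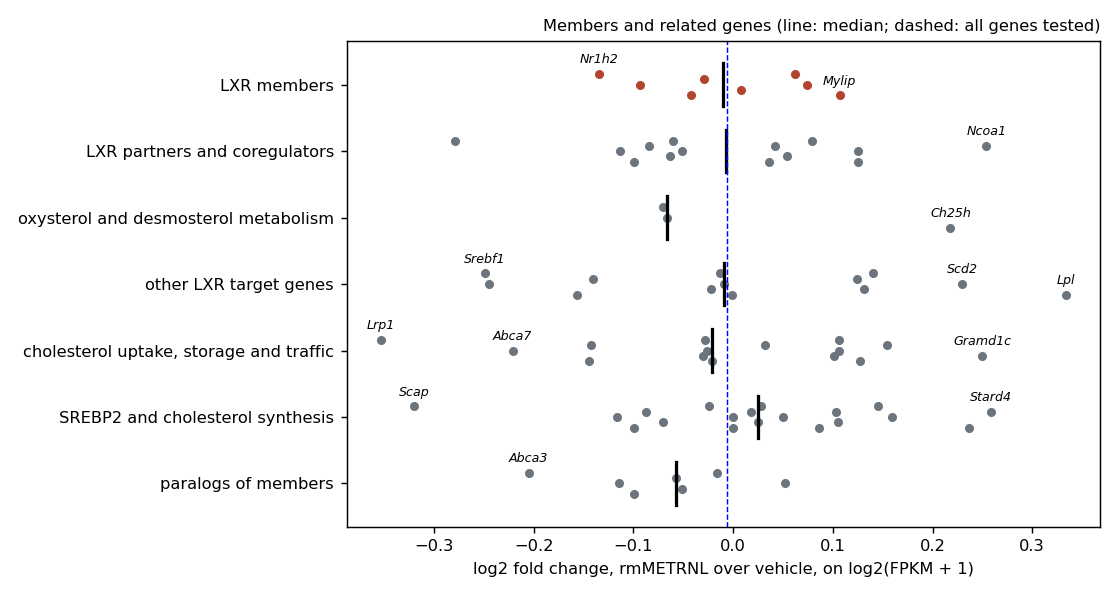
Log2 fold change of rmMETRNL over vehicle in limma for every tested member (red) and for the tested genes of 6 related lists (grey), with each list's median as a black line and the median of all genes tested as a dashed line. The members lie between -0.13 and 0.11, and single genes of the other lists reach -0.35 (Lrp1) and 0.33 (Lpl). The list labelled paralogs of members also holds Lpcat genes that were taken by name.

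Cholesterol synthesis genes under SREBP2, which sterol loading is known to lower while it raises LXR targets, gave a median of 0.025 over 19 tested of 23. Limma and voom called 0, and unadjusted p-values under 0.05 numbered 2 higher and 1 lower, against 7.54% and 7.13% of all genes. Stard4, a sterol transfer gene, had 2.63 ± 0.156 FPKM with rmMETRNL and 2.03 ± 0.0580 FPKM with vehicle, Scap, the SREBP escort gene, 2.68 ± 0.265 and 3.60 ± 0.445 FPKM, Msmo1 11.2 ± 0.371 and 9.97 ± 0.303 FPKM, and Hmgcs1 5.42 ± 0.344 and 4.81 ± 0.459 FPKM. The regulator gene Srebf2 stood at 30.3 ± 1.52 and 30.8 ± 0.702 FPKM.

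A last list held 11 genes related to the members by family or, as for the Lpcat genes, by name. Of these, 7 were tested, with 0 calls in either tool, 0 unadjusted p-values under 0.05 in limma and a median of -0.06. Abca3 had 3.61 ± 0.577 FPKM with rmMETRNL and 4.30 ± 0.405 FPKM with vehicle, and Abca2 had 1.64 ± 0.111 and 1.67 ± 0.0484 FPKM, so that Abca1 was the most abundant of these ABCA genes. Smpdl3b had 6.29 ± 0.602 and 6.87 ± 0.306 FPKM, far below Smpdl3a. Lpcat2, at 17.2 ± 0.534 and 16.5 ± 1.14 FPKM, was above Lpcat3, and Lpcat4, at 0.930 ± 0.0639 and 1.08 ± 0.318 FPKM, was below it.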

How the data were processed

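Total RNA (1 ug per sample) went into Illumina TruSeq libraries, per the labels' protocols. What the authors deposited is a single FPKM table with names, positions and lengths of genes. Builds GRCm38 and mm10 stand in the submitters' processing notes. The aligner, the counter and the strand setting are not given in the sources read. Table coordinates equalled those of GENCODE M21 for 98.3% of 54409 shared identifiers.

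Multiplying FPKM by gene length gave whole multiples of a step per library for 100% of values (tolerance 0.05 reads), hence reads. Limma (version 3.58.1, R 4.3.3, mean-variance trend) used log2(FPKM + 1) of genes averaging 1 FPKM or more, and limma voom used the reads. Both moderate the variance of a gene by that of all genes tested, so no p-value of theirs rests on that gene's own spread alone. The code was tested on simulated data. The limit of 3 reads covers counting error only.

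The members and lists were chosen with earlier results of these data known. Named were the members, up to 4 genes per list with the smallest p, some by role, the neighbours of Apoe, the 5 genes most like Abca1 and abundant markers. Other settings were pseudocounts (0.1 and 0.01), no filter, a minimum of 5 FPKM, TPM, median-of-ratios scaling, quantile normalization, no trend, the replicate block, each library left out and, chosen after seeing the data, removal of the trend with gene length. Libraries with the same number were not treated as pairs. Some listed genes are not reported here.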

Additional observations from a re-analysis of the deposited data

How the results depend on the processing

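No member passed an adjusted p of 0.05 under any of the 11 other settings or in the 6 fits that each left out 1 library (lowest adjusted p = 0.3, Apoe in limma). Over all genes, limma called 0, against 5 with no filter, 1 with TPM, 61 with voom on recovered reads, 0 with the replicate block and 0 in each fit that left out a library. Members with a positive log2 fold change numbered 4 of 8, against 2 of the 5 that reach a mean of 5 FPKM, and 3 to 5 when a library was left out. Their median of -0.011 ranged from -0.024 to 0.02 when a library was left out, and was 0.01 with TPM. Small log2 fold changes turned sign. Lpcat3 was -0.004 in voom, and leaving out a library gave ranges of -0.014 to 0.033 for Lpcat3, -0.133 to 0.022 for Nr1h3, -0.072 to 0.017 for Smpdl3a and -0.026 to 0.143 for Abca1, which was negative without rmMETRNL library 3. The difference in the Nr1h3 share ranged from -0.301 to 0.855 percentage points. The cause of these turns was not tested. Same-numbered libraries of the groups had deviations correlated between -0.0454 and 0.0074, and differently numbered ones between -0.0686 and 0.0839. No pairing by number was visible, but these values cannot tell whether samples were paired, and the labels do not say. A replicate block in this balanced design leaves every log2 fold change as it was, so the members' median of -0.011 could not change. At 54 to 102 reads per library, depth limits what can be seen of Mylip and Nr1h3, and Apoc2 could not be compared.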
